A study of Homo sapiens with 6 samples.

Results

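The 41 genes described here encode proteins of homologous recombination and of the Fanconi anemia pathway, together with the checkpoint kinases and chromatin factors that act beside them. Membership rests on gene names and uses no measured value, although the list was drawn up with earlier results of these data known. The members make up 41 of the 58825 genes in the deposited tables. All 41 were found in both tables, and all 41 passed the filter on low counts. RNA was sequenced from NCI-H460, a human lung cancer cell line that the labels call an adenocarcinoma line, which was grown in RPMI-1640. The cells had been infected with lentivirus carrying a short hairpin RNA (shRNA) against GFP in the control group (GFPkd, genotype control) or against PRMT5 in the knockdown group (PRMT5kd), with 3 libraries in each group. Both groups therefore carried a lentiviral shRNA, and the infected cells were a stable, puromycin-selected line according to the methods of the study. Those methods speak of a control shRNA and name no target for it, so GFP as its target rests on the labels. The labels give a single PRMT5 shRNA group and do not name its hairpin, so hairpins could not be compared. The comparison asks how mRNA of the repair genes differed after PRMT5 knockdown, and its p-values measure the spread between these libraries.

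Homologous recombination repairs a broken chromosome by copying the intact sister molecule. Nucleases first trim the broken ends to single strands, and BRCA1, PALB2 and BRCA2 then load a recombinase that searches for the matching sequence. The Fanconi pathway recognises crosslinks between the DNA strands, attaches ubiquitin to the FANCD2 and FANCI pair and hands the broken intermediates to recombination. PRMT5 is an arginine methyltransferase that makes symmetric dimethylarginine on histones, splicing factors and repair proteins, among them RUVBL1 and TP53BP1.

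PRMT5 itself was measured first, since it checks the labels. Its level, in CPM (the gene's count as a share of the library's total after edgeR's TMM scaling, times 1e6), was 143, 127 and 128 in GFPkd replicates 1 to 3 and 45.8, 45.6 and 38.3 in PRMT5kd replicates 1 to 3. The groups were far apart, with means of 133 ± 8.90 and 43.2 ± 4.28 (SD, n = 3), and PRMT5 fell by 1.62 on the log2 scale (95% interval −1.84 to −1.40, adjusted p = 0.0063 by the quasi-likelihood test of edgeR, adjusted over all genes by Benjamini-Hochberg). The exact two-sided permutation test gave p = 0.10, the smallest that 3 against 3 libraries allow.

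The libraries held 53531257 to 70518401 counts each. Of the genes tested, 10 were higher and 4 lower in PRMT5kd by edgeR, and DESeq2, the other count test run, called 303 higher and 227 lower. Counts came from an estimate rather than from single reads: between 1214 and 1319 genes per library held exactly 4 counts, against 462 to 546 with 3 and 283 to 308 with 5. The epithelial keratins KRT8, KRT18, KRT19 and KRT7 were present, and EPCAM (0.929 to 1.56 CPM) and CDH1 (0.733 to 2.10 CPM) were low in all 6 libraries. Of these 6 epithelial markers 5 had a negative log2 fold change, 1 was lower at an unadjusted p under 0.05 by edgeR (KRT8, −0.23) and 2 lay wholly below, with a summed level of 1753 to 1879 CPM in GFPkd and 1523 to 1649.7 CPM in PRMT5kd. The summed level of the 5 endothelial markers was 9.74 to 10.8 CPM in GFPkd and 14.7 to 18.5 CPM in PRMT5kd. All 4 that could be tested were higher at an unadjusted p under 0.05, VWF and KDR were at 0 in every GFPkd library, and VWF passed the adjusted threshold by edgeR, as did VWF and PECAM1 by DESeq2. Of the 5 fibroblast markers 2 were higher at an unadjusted p under 0.05 by edgeR (COL3A1 and PDGFRB, of which COL3A1 passed the adjusted threshold by DESeq2). DCN, the most abundant of the 5, had a log2 fold change of −0.24. Their summed level overlapped, with 117 to 142 CPM in GFPkd and 110 to 132 CPM in PRMT5kd. Over all genes tested, 6.54% were higher and 6.29% lower at that unadjusted p, and 10.7% lay wholly below. The blood markers PTPRC and CD3E and the endothelial TIE1 were too low to test, and no blood or neuroendocrine marker had an unadjusted p under 0.05. The part of these markers in the repair genes' values was not tested.

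No repair gene passed the test. By edgeR, 0 of the 41 had an adjusted p under 0.05 (range 0.301 to 0.993), where 0.0690% of all 20295 genes tested passed, and by DESeq2 also 0 of 41 passed (lowest adjusted p 0.143), where 2.61% of all genes did. That 2.61% counts as not passed the genes to which DESeq2 gave no adjusted p, such as KDR, while all 41 members had one. At an unadjusted p under 0.05, 1 member was higher in PRMT5kd (ATM, 2.44% of the 41), against 6.54% of all genes tested. In the other direction 2 members were lower (EXO1 and UBE2T, 4.88%), against 6.29% of all genes tested. The PRMT5kd libraries lay wholly above the GFPkd libraries for 2 members (ATM and BRIP1, 4.88%, against 11.0% of all genes) and wholly below for 3 (EXO1, RAD51C and UBE2T, 7.32%, against 10.7% of all genes). These shares were below those of the whole table, so they are not a result about the repair genes.

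For most members the bounds were narrow. The fitted log2 fold changes ran from −0.38 (RNF8) to 0.36 (ATM), with 23 members above 0 and 18 below. Their median was 0.02, beside 0.01 for all genes tested, and the median size of the change regardless of sign was 0.09, beside 0.19 for all genes. No member was past 1.5-fold either way, while 14.5% of all genes tested were. The genes tested include some with far fewer counts than any member, such as KDR (0 to 26 counts, log2 fold change 7.39). The comparison was not matched on level, so the smaller changes are not a result about the repair genes. The 95% interval lay inside 1.5-fold in both directions for 36 members, and inside 1.25-fold for 21. It reached past 1.5-fold for the other 5, which were RNF8, BRIP1, BRCA2, ATM and RAD54B. Each member had between 201 and 13814 counts in every library, and the coefficient of variation between replicates had a median of 6.71% in GFPkd and 8.59% in PRMT5kd.

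**Figure D1:**
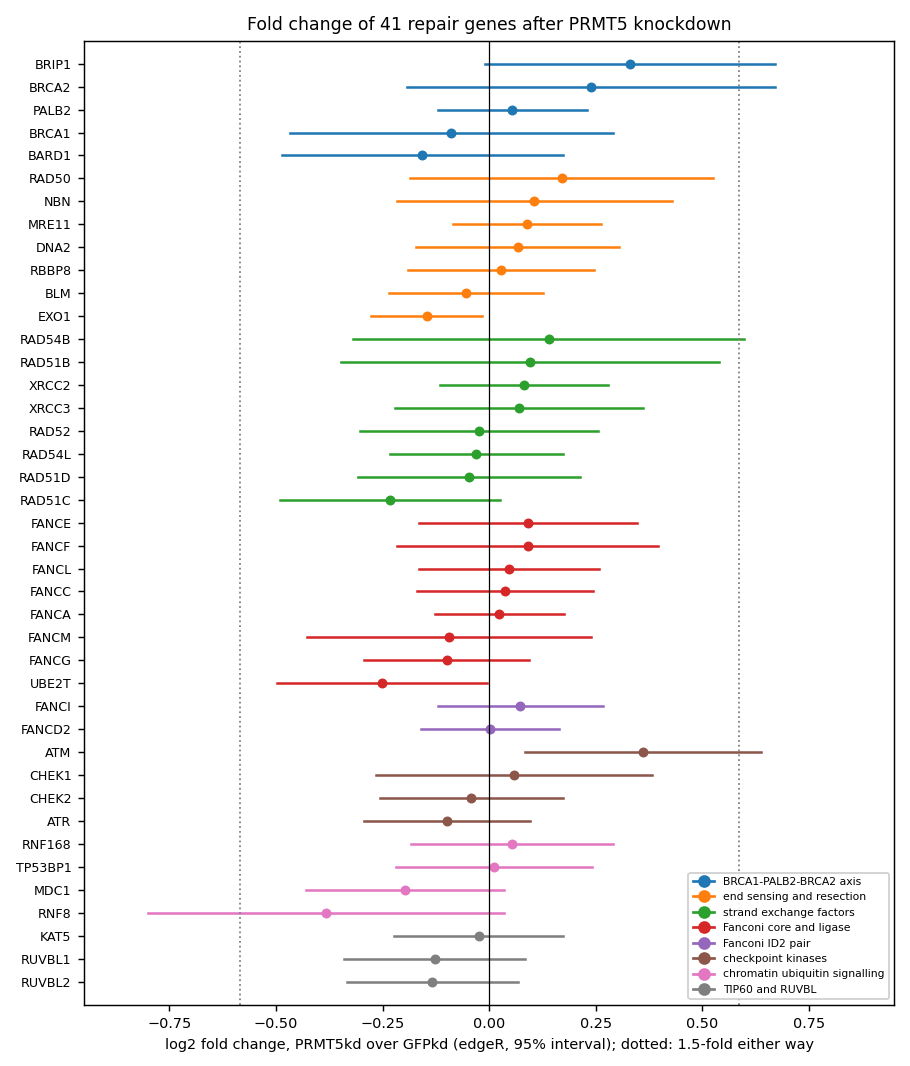
Log2 fold change of PRMT5kd over GFPkd for each of the 41 repair genes (points, edgeR) with its 95% interval (lines), coloured by role and with dotted lines at 1.5-fold either way. All points lie between −0.38 and 0.36, and 36 of the intervals stay between the dotted lines.

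**Figure D2:**
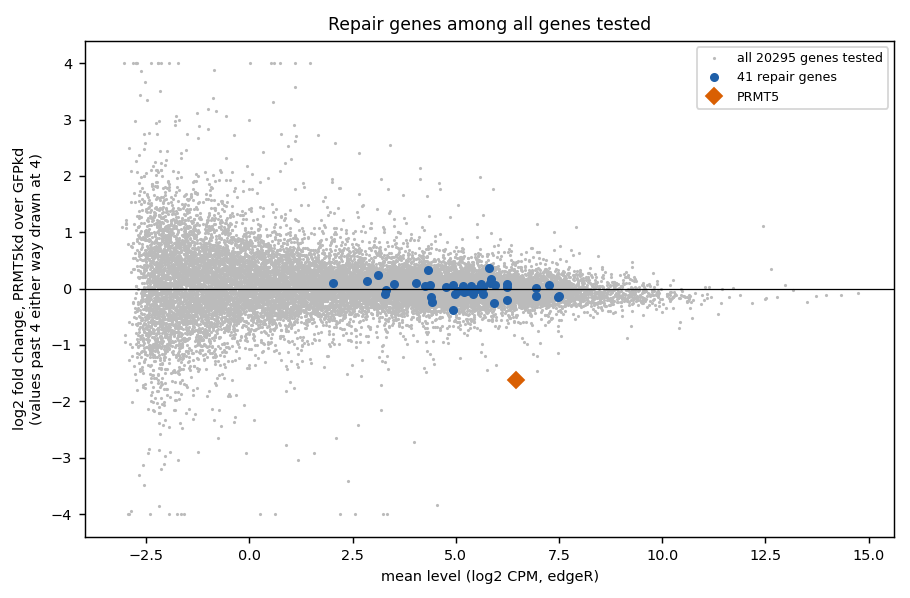
Fitted log2 fold change (vertical axis) against mean level in log2 CPM (horizontal axis) for all 20295 genes tested (grey), the 41 repair genes (blue) and PRMT5 (orange), with values past 4 drawn at 4. The repair genes form a flat band around 0, with PRMT5 below them at −1.62.

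Damage signalling begins with the kinases ATM, which responds to double-strand breaks, and ATR, which responds to single-stranded DNA at stalled forks. ATM (ENSG00000149311, chromosome 11, 108222484 to 108369102, plus strand, GRCh38) had 42.2, 53.3 and 50.4 CPM in GFPkd replicates 1 to 3 and 69.5, 56.2 and 61.9 CPM in PRMT5kd replicates 1 to 3. The lowest PRMT5kd library lay just above the highest GFPkd library, so the groups did not overlap. The fitted difference was 0.36 on the log2 scale (SE 0.117, 95% interval 0.08 to 0.64, unadjusted p = 0.0177 and adjusted p = 0.301 by edgeR). Without PRMT5kd replicate 1, the highest library, it was 0.28 with an unadjusted p of 0.0618 by edgeR. In 14 of the 17 alternatives the unadjusted p for ATM was under 0.05, and its lowest adjusted p was 0.143 (DESeq2).

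ATM has the longest summed exon length of the 41 genes, 23972 bases against a median of 6558. With each library's trend of count on gene length taken out, its log2 fold change was 0.23 (unadjusted p = 0.0381 and adjusted p = 0.346 by edgeR). Its exons also lie across those of NPAT and C11orf65 on the other strand. The methods of the study name a strand-specific library kit (TruSeq Stranded mRNA), while whether the counting used strand is not given in the sources used here. NPAT, a histone gene coactivator read from the neighbouring promoter, had a log2 fold change of −0.13 (95% interval −0.58 to 0.31), and C11orf65 had under 0.5 CPM in every library. The part of length and of shared exons in the ATM value was not tested further.

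ATR had 49.8, 54.0 and 52.1 CPM in GFPkd and 48.8, 44.4 and 52.4 CPM in PRMT5kd, and the groups overlapped (log2 fold change −0.10, 95% interval −0.29 to 0.10). CHEK1, the effector kinase below ATR, had 61.9, 50.6 and 68.5 CPM in GFPkd and 70.6, 62.8 and 54.9 CPM in PRMT5kd. Its libraries interleaved, and the difference was 0.06 (−0.27 to 0.38). CHEK1 shares exons with STT3A on the same strand, and STT3A, an oligosaccharyltransferase subunit, had a log2 fold change of −0.12. CHEK2, the effector of ATM, had a log2 fold change of −0.04 (−0.26 to 0.17).

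Chromatin around a break is marked by MDC1, which binds phosphorylated histone H2AX, and by the ubiquitin ligases RNF8 and RNF168, which make the mark that TP53BP1 reads. RNF8 had the lowest log2 fold change of the members, with 38.4, 39.0 and 25.9 CPM in GFPkd and 24.6, 24.6 and 30.1 CPM in PRMT5kd. GFPkd replicate 3 stood among the PRMT5kd libraries, apart from the other GFPkd libraries. The difference was −0.38 (95% interval −0.80 to 0.03, unadjusted p = 0.0665 and adjusted p = 0.419 by edgeR). Leaving out each library in turn moved it between −0.28, without GFPkd replicate 2 (unadjusted p = 0.194), and −0.55, without GFPkd replicate 3 (unadjusted p = 0.0040 and adjusted p = 0.231 by edgeR). With all libraries, DESeq2 gave −0.39 (unadjusted p = 0.0387 and adjusted p = 0.298).

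TP53BP1, which holds back end resection, had 115, 121 and 132 CPM in GFPkd and 140.1, 116 and 115 CPM in PRMT5kd. Only PRMT5kd replicate 1 exceeded the GFPkd range, and the fitted difference was 0.01 (−0.22 to 0.24). MDC1 had a log2 fold change of −0.20 (−0.43 to 0.03), with PRMT5kd replicate 3 lowest of all, and RNF168 had 0.05 (−0.18 to 0.29).

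TIP60, encoded by KAT5, is the acetyltransferase that modifies ATM and histone H4 at breaks, and RUVBL1 and RUVBL2 are the paired ATPases of its complex. KAT5 had 41.3, 45.0 and 39.5 CPM in GFPkd and 43.6, 41.6 and 38.6 CPM in PRMT5kd, and the groups covered much the same range. Its log2 fold change was −0.02 (95% interval −0.22 to 0.17). RUVBL1 had 206, 191 and 168 CPM in GFPkd and 177, 179 and 159.8 CPM in PRMT5kd. GFPkd replicates 1 and 2 were the highest of the 6, and GFPkd replicate 3 lay inside the PRMT5kd range, with a difference of −0.13 (−0.34 to 0.08).

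RUVBL2 had 141, 121 and 125 CPM in GFPkd and 123, 121 and 108 CPM in PRMT5kd, again with overlap and a difference of −0.13 (−0.33 to 0.07). The ratio of RUVBL1 to RUVBL2, on the scale of fragments per kilobase and library size (FPKM), was 0.753 ± 0.0605 in GFPkd and 0.755 ± 0.0128 in PRMT5kd (SD, n = 3). Of 21 partner subunits in the TIP60, INO80 and SRCAP complexes, all tested, 0 passed edgeR's adjusted threshold. At an unadjusted p under 0.05, 3 were lower (14.3%, against 6.29% of all genes tested) and none was higher (MORF4L2 −0.22, ACTR5 −0.33, ACTL6A −0.24 on the log2 scale), around a median of 0.04.

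Ends are held by MRE11, RAD50 and NBN, and are trimmed by RBBP8 (CtIP), EXO1 and DNA2, with the helicase BLM opening the duplex. EXO1 (ENSG00000174371, chromosome 1, 241847967 to 241895148, plus strand) had 179, 194 and 187 CPM in GFPkd and 172, 165 and 169 CPM in PRMT5kd. The groups did not overlap and each was tight, with means of 187 ± 7.43 and 169 ± 3.53 (SD, n = 3). The difference was −0.15 (SE 0.0551, 95% interval −0.28 to −0.02, unadjusted p = 0.0325 and adjusted p = 0.342 by edgeR), which is 90.3% of the control level. The difference was −0.10 with library totals alone (unadjusted p = 0.142 by edgeR) and −0.08 with limma on log2(FPKM + 1) (unadjusted p = 0.186), and the FPKM values of the groups overlapped. The unadjusted p stayed under 0.05 in 1 of the 6 fits that left out a library, the fit without GFPkd replicate 1.

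The other 6 genes of this group had log2 fold changes from −0.06 (BLM) to 0.17 (RAD50), and all 6 intervals included 0. RAD50, the ATPase that tethers ends, had 55.3, 53.4 and 53.9 CPM in GFPkd and 53.6, 52.4 and 76.9 CPM in PRMT5kd. PRMT5kd replicate 3 alone was high, and without it the log2 fold change was −0.03. The FPKM ratios MRE11 to RAD50 (1.20 and 1.16 in GFPkd and PRMT5kd) and NBN to RAD50 (1.74 and 1.70) differed by less than their spread between replicates.

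BRCA1 and BARD1 form a ubiquitin ligase, BRIP1 is a helicase bound to it, and PALB2 links BRCA1 to BRCA2. BRCA1 had 36.3, 55.5 and 40.5 CPM in GFPkd and 40.5, 39.1 and 44.8 CPM in PRMT5kd. GFPkd replicate 2 was the highest of the 6 libraries, as it also was for BARD1 (26.1 CPM). The BRCA1 difference was −0.09 (95% interval −0.47 to 0.29) and turned to 0.11 without that library. BRIP1 had 14.5, 20.3 and 18.5 CPM in GFPkd and 21.0, 21.5 and 24.5 CPM in PRMT5kd.

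The BRIP1 groups were adjacent and did not overlap (0.33, 95% interval −0.01 to 0.67, unadjusted p = 0.0550 and adjusted p = 0.400 by edgeR), and without GFPkd replicate 1 the difference was 0.20. BRCA2, which loads the recombinase, had 6.46, 8.38 and 8.82 CPM in GFPkd and 8.48, 8.22 and 11.2 CPM in PRMT5kd. GFPkd replicate 1 was low and PRMT5kd replicate 3 was high, with the other 4 libraries close together, and the difference was 0.24 (−0.19 to 0.67). It was 0.11 without GFPkd replicate 1 and 0.08 without PRMT5kd replicate 3. PALB2 had 34.8, 36.7 and 34.8 CPM in GFPkd and 35.3, 36.3 and 38.8 CPM in PRMT5kd, a flat pattern with a difference of 0.05 (−0.12 to 0.23). BARD1 had −0.16 (−0.49 to 0.17), and the FPKM ratio of BRCA1 to BARD1 was 1.61 ± 0.110 in GFPkd and 1.70 ± 0.144 in PRMT5kd.

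**Figure D3:**
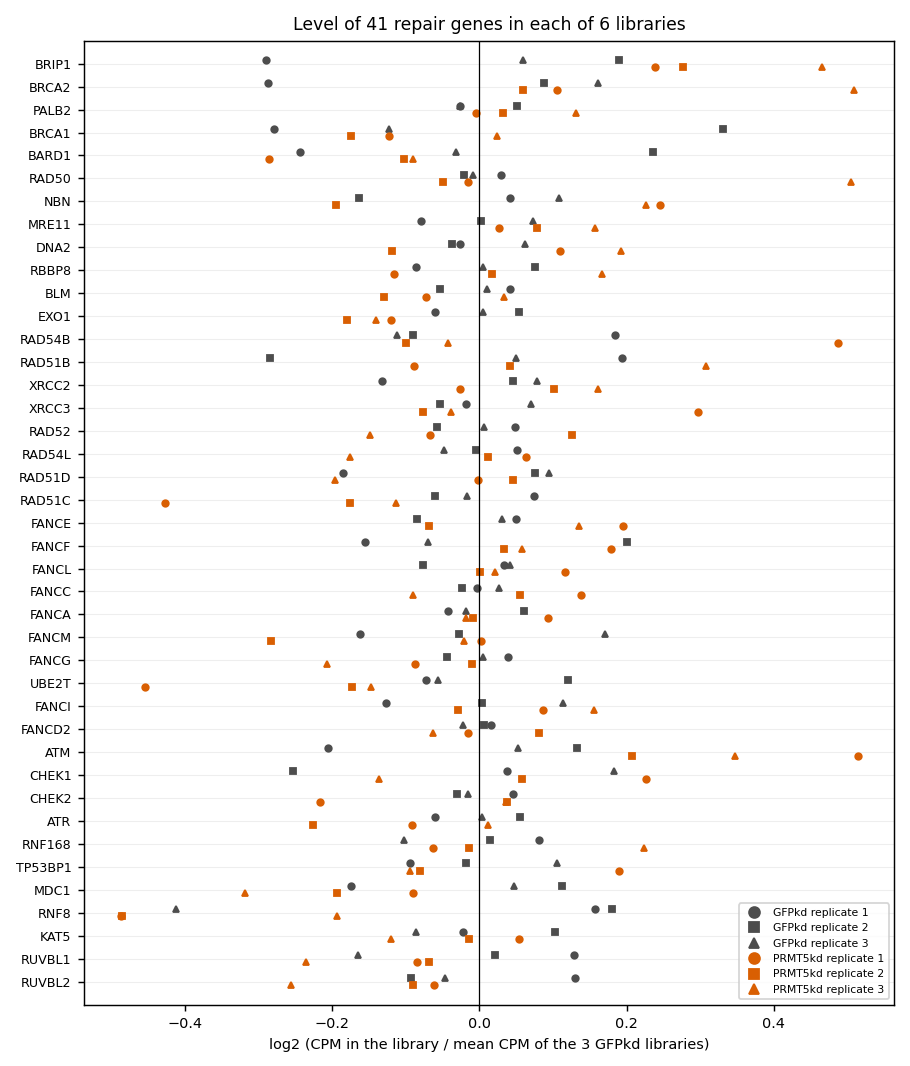
Level of each repair gene in each library as log2 of its CPM over the mean CPM of the 3 GFPkd libraries (horizontal axis), with GFPkd in grey, PRMT5kd in orange and the replicate given by the symbol. The colours mix for most genes and separate for ATM, BRIP1, EXO1, RAD51C and UBE2T.

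Strand exchange is helped by the paralogue proteins RAD51B, RAD51C, RAD51D, XRCC2 and XRCC3, by the annealing protein RAD52 and by the motor proteins RAD54L and RAD54B. RAD51C, which joins both paralogue complexes, had 24.5, 22.3 and 23.0 CPM in GFPkd and 17.3, 20.6 and 21.5 CPM in PRMT5kd. All PRMT5kd libraries were below the GFPkd libraries, with PRMT5kd replicate 1 lowest, and the difference was −0.23 (95% interval −0.49 to 0.03, unadjusted p = 0.0711 and adjusted p = 0.426 by edgeR). Without PRMT5kd replicate 1 it was −0.14, and the FPKM values of the groups overlapped. The FPKM ratio of RAD51C to XRCC3, its partner, was 1.42 ± 0.0909 in GFPkd and 1.18 ± 0.279 in PRMT5kd (exact two-sided permutation p = 0.20). The other 7 genes had log2 fold changes from −0.05 (RAD51D) to 0.14 (RAD54B), with every interval including 0.

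In the Fanconi pathway FANCA, FANCC, FANCE, FANCF and FANCG scaffold the core complex, FANCM anchors it to DNA, and FANCL is its ubiquitin ligase. UBE2T is the conjugating enzyme that gives FANCL its ubiquitin. UBE2T (ENSG00000077152, chromosome 1, 202331657 to 202341980, minus strand) had 62.8, 71.8 and 63.5 CPM in GFPkd and 48.2, 58.6 and 59.6 CPM in PRMT5kd. The groups did not overlap, and PRMT5kd replicate 1 was lowest. The difference was −0.25 (SE 0.104, 95% interval −0.50 to −0.01, unadjusted p = 0.0459 and adjusted p = 0.380 by edgeR), and −0.16 without PRMT5kd replicate 1. The FPKM values of the groups overlapped (lowest GFPkd 31.1, highest PRMT5kd 31.7), with an unadjusted p of 0.106 by limma on log2(FPKM + 1). In 7 of the 17 alternatives the unadjusted p for UBE2T was under 0.05. The other 7 core genes had log2 fold changes from −0.10 (FANCG) to 0.09 (FANCE), and all their intervals included 0.

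FANCD2 had 46.0, 45.7 and 44.7 CPM in GFPkd and 44.9, 48.1 and 43.5 CPM in PRMT5kd. The groups overlapped, and its log2 fold change of 0.00 (95% interval −0.16 to 0.16) was the nearest to 0 of the 41. FANCI, its partner, had 136, 149 and 161 CPM in GFPkd and 158, 145 and 165 CPM in PRMT5kd, with overlap and a difference of 0.07 (−0.12 to 0.27). The FPKM ratio of FANCI to FANCD2 was 3.53 ± 0.344 in GFPkd and 3.72 ± 0.423 in PRMT5kd. Of the 7 partner ratios computed, none had an exact two-sided permutation p under 0.20, and adjusted over the 7 the values were 0.933 to 1. The pairs were picked after the first fit was known.

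The members differed far more from each other than between the groups. Compared per length, the mean FPKM over the 6 libraries ran from 36.7 for EXO1 down to 0.455 for RAD51B, with a median of 5.30. EXO1, UBE2T, RUVBL2, RUVBL1, FANCI and XRCC2 stood highest, and FANCM, BRCA2 and RAD51B lowest. Among the highest, EXO1 and UBE2T touched in range, as did UBE2T and RUVBL2 and also FANCI and XRCC2, so neighbours in the order often did not differ beyond their spread. On the FPKM scale 29 members had a ratio above 1, against 23 by the scaled counts, and 35 kept the sign of their count-based change. For all genes tested the median log2 fold change was also higher on FPKM, 0.04 with limma on log2(FPKM + 1) against 0.01 by edgeR. The share of all genes with a ratio above 1 was not taken, so the 29 are not a result about the repair genes. The median change of a member in a library, relative to the GFPkd mean, was between −0.02 and 0.01 on the log2 scale in all 6 libraries.

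**Figure D4:**
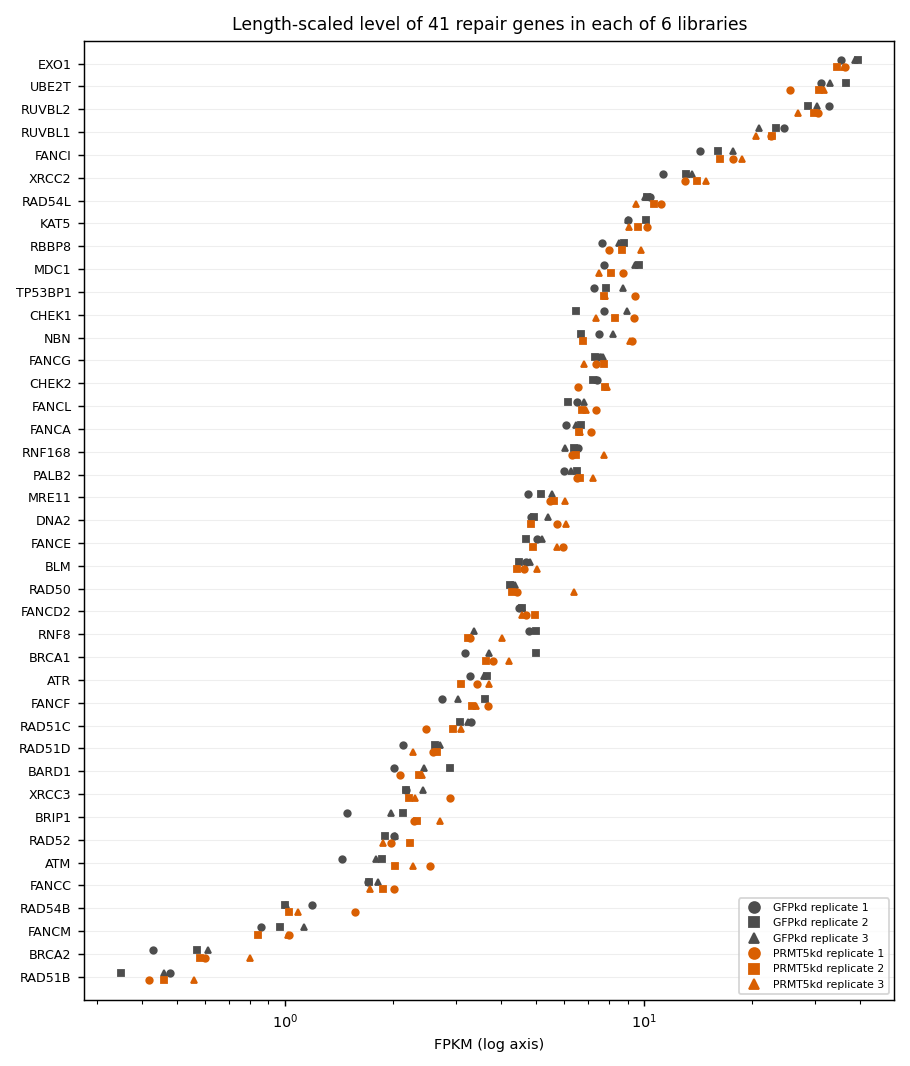
FPKM of each repair gene in each of the 6 libraries on a log axis, ordered by mean level, with GFPkd in grey and PRMT5kd in orange. Levels run from 36.7 for EXO1 to 0.455 for RAD51B while the symbols of a gene stay close together.

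Of 50 further recombination and Fanconi genes, all tested, 0 passed edgeR's adjusted threshold and 0 passed by DESeq2, while 4 were lower (8.0%, against 6.29% of all genes tested) and none higher at an unadjusted p under 0.05. They were ATRIP (−0.41), the ATR partner, CENPX (−0.31), which binds FANCM, RPA3 (−0.27), a subunit of the single-strand binding complex, and INTS3 (−0.25), which carries single-strand binding proteins. The median of the 50 was −0.01.

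Among 21 end joining and shieldin genes, 0 passed the adjusted threshold by edgeR or DESeq2. At an unadjusted p under 0.05 by edgeR, 1 was higher (4.76%, against 6.54% of all genes tested) and 5 were lower (23.8%, against 6.29%). They included PARP1 (−0.19), the break sensor, XRCC5 (−0.18), a Ku subunit, and POLM (−0.40), a gap-filling polymerase, while the higher gene was XRCC1 (0.22), a scaffold of single-strand break repair. The median of the 21 was 0.05.

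Many recombination genes are read mainly in S and G2 phase, so 25 genes of S and G2/M phase were measured beside them. By edgeR 0 of the 25 passed the adjusted threshold and by DESeq2 2 did, and at an unadjusted p under 0.05 by edgeR 1 was higher (MKI67, 0.57, which is 4.0%, against 6.54% of all genes tested) and 6 were lower (24%, against 6.29%). Of the 25, 9 lay wholly below (36%, against 10.7% of all genes tested). Among the lower genes were CCNB2 (−0.22), a mitotic cyclin, MCM4 (−0.26), a subunit of the replicative helicase, and RRM2 (−0.75), a ribonucleotide reductase subunit. The median of the 25 was −0.10, and 20 had a negative sign. Their part in the repair genes' values was not tested.

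Gene length and exons shared with other genes were set beside these values, and the part of shared exons was not tested. Across the 41 genes, which share the same 6 libraries, Spearman's rho of exon length against log2 fold change was 0.18, and over 20221 genes tested it was 0.12, given as a description. In the annotation 8 members share exon bases with another gene on the same strand and 22 with a gene on the opposite strand, so their counts could be split or joined by the counting.

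Promoters were searched because recombination genes are known as targets of the E2F and DREAM regulators of the cell cycle. RefSeq windows on GRCh38.p14, from 250 bases before to 50 after a start site, matched 37 of the 41 members with 51 windows, of 35116 windows in all. The E2F-type letters TTTGGCGC, TTTCGCGC, TTTCCCGC or TTTGCCGC, on either strand, were in 9.80% of member windows and in 3.31% of all windows. The letters CCAAT were in 49.0% against 34.6%, and the CHR letters TTTGAA in 11.8% against 15.2%. These motifs were counted separately, and a match is a description of letters only.

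The windows below show the E2F-type matches of EXO1, FANCA, FANCC, FANCD2 and XRCC2 and the CCAAT and CHR matches in the first listed window of the other members with the lowest p, ATM and UBE2T. Each is read from 5′ to 3′ on the gene's strand, with the matched letters in capitals and 8 flanking bases on each side.
EXO1 E2F-type, chr1:241848200-241848223, plus strand: ggtcagccTTTCGCGCgctgtgta
FANCA E2F-type, chr16:89816804-89816827, minus strand: acaccgcgGCGGCAAAgccaaacg
FANCC E2F-type, chr9:95317866-95317889, minus strand: gggcttccGCGCGAAAccgggaac
FANCC E2F-type, chr9:95317740-95317763, minus strand: gtcggaatTTTCCCGCgacgccgc
FANCD2 E2F-type, chr3:10026427-10026450, plus strand: cgggcctgGCGGGAAAgtcgaaaa
XRCC2 E2F-type, chr7:152676105-152676128, minus strand: cgttggtgGCGGGAAAgttgagtc
ATM CCAAT, chr11:108222871-108222891, plus strand: cgctggccATTGGtggacatg
ATM CHR, chr11:108223039-108223060, plus strand: acgcagggTTTGAAccggaagc
UBE2T CHR, chr1:202342076-202342097, minus strand: cgctctcaTTTGAAtgcgtgag
UBE2T CCAAT, chr1:202342048-202342068, minus strand: agcactggCCAATagagagga
UBE2T CCAAT, chr1:202341997-202342017, minus strand: actgtgggCCAATcacaatct

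The 5 members with E2F-type letters had log2 fold changes of −0.15 (EXO1), 0.02 (FANCA), 0.04 (FANCC), 0.00 (FANCD2) and 0.08 (XRCC2), on both sides of 0. The match in EXO1 begins at base 5 after the start site, that in FANCD2 at base −2 and that in XRCC2 at base 22. The 6 members with CHR letters were likewise on both sides of 0, with ATM at 0.36, BRIP1 at 0.33, FANCC at 0.04, RUVBL2 at −0.13, MDC1 at −0.20 and UBE2T at −0.25.

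**Figure D5:**
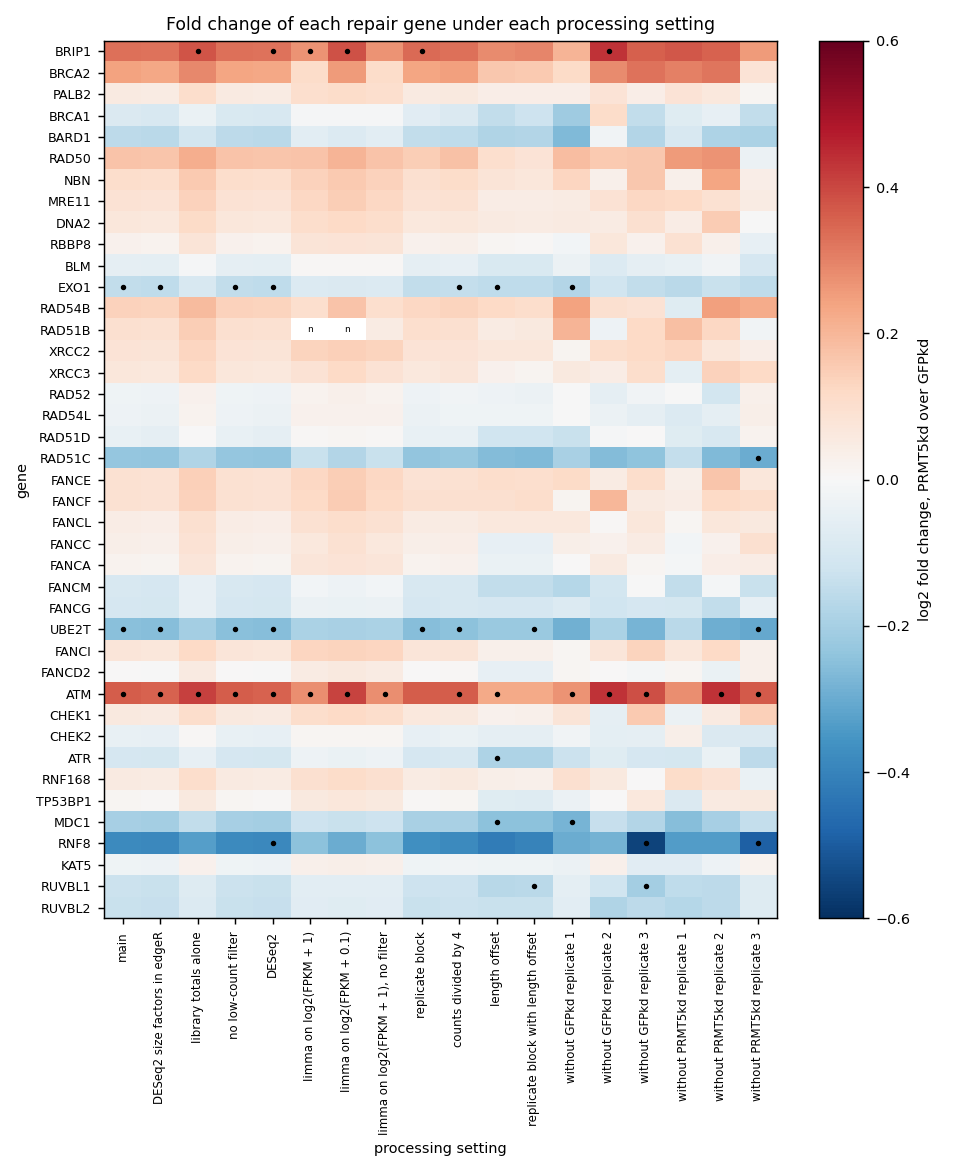
Fitted log2 fold change of each repair gene (rows) under the analysis reported and 17 alternatives (columns), red for higher and blue for lower in PRMT5kd, with a dot where the unadjusted p was under 0.05 and n where the gene was not tested. Of the 41 genes, 22 keep their sign in all columns, ATM, RNF8 and UBE2T among them.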

How the data were processed

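RNA was prepared from NCI-H460 cells and libraries were sequenced, with 3 GFPkd and 3 PRMT5kd samples. According to the submitters' processing notes, the authors used cutadapt 1.9, HISAT2 2.0.4 and StringTie 1.3.4d on GRCh38. The methods of the study name a mouse build instead. Of the 58825 gene identifiers, 58552 are in GENCODE 29. The deposited table of estimated counts per gene held whole numbers, so rounding changed nothing. The deposited FPKM table was scaled by the authors to length and depth.

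Estimated counts were tested with edgeR 4.0.16 (R 4.3.3; TMM, filterByExpr, quasi-likelihood fit, Benjamini-Hochberg adjustment over all genes tested, threshold 0.05). Alternatives were DESeq2 1.42.0, limma 3.58.1 on log2(FPKM + 1) or log2(FPKM + 0.1) with a mean FPKM of at least 0.5 or no filter, other scalings, no count filter, counts divided by 4, a length offset, a replicate block, and leaving out each library. Permutation tests used scipy 1.17.1. The scripts were tested on simulated data. The standard error (SE) was derived from the edgeR test, as the size of the log2 fold change over the square root of its F statistic. The 95% intervals were built from this SE and the t distribution with the test's degrees of freedom. They give the approximate precision of each value. The members, gene lists and role groups were chosen with earlier results of these data known, and so were the partner pairs and overlapping genes NPAT, C11orf65 and STT3A. Values in every library were given for members at an unadjusted p under 0.05 or without overlap, and for KAT5, RUVBL1, RUVBL2, TP53BP1, BRCA1, BRCA2, PALB2, FANCD2, FANCI, ATM, ATR and CHEK1. RNF8 and RAD50 were added after their values were seen. From other lists at most 4 genes with the lowest p under 0.05 were named.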

Additional observations from a re-analysis of the deposited data

How the results depend on the processing

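No repair gene passed the adjusted threshold under any of the 17 alternatives run, and 22 of the 41 kept their sign in all of them. With the replicate block, alone or with the length offset, no gene of the whole table passed, PRMT5 included. The lack of a passing repair gene in those fits therefore says little. The cause of each change below was not tested. Over all genes tested, an unadjusted p under 0.05 in either direction was held by 2605 of 20295 in the analysis reported. It was held by 2689 of 20295 with library totals and 2668 of 20295 with DESeq2. With limma it was 2309 of 14707 on log2(FPKM + 1), 2298 of 14707 on log2(FPKM + 0.1) and 3085 of 32052 without the filter. With the length offset it was 2659 of 20221. Shares of all genes wholly above or below were taken for the analysis reported alone. With library totals alone, 2 members were higher and 0 lower at an unadjusted p under 0.05, 1 lay wholly below and the median was 0.073 on the log2 scale, while the median of all genes was 0.06. The sign changed there for RAD51D (0.00093), RAD52 (0.025), RAD54L (0.020), CHEK2 (0.0070) and KAT5 (0.025). With limma on log2(FPKM + 1), the counts were 2 higher, 0 lower and 0 wholly below with a median of 0.061, beside 0.039 for all genes. The sign changed there for BLM (0.0049), RAD51D (0.0090), RAD52 (0.023), RAD54L (0.025), CHEK2 (0.010) and KAT5 (0.032). With log2(FPKM + 0.1) the counts were also 2, 0 and 0 with a median of 0.074, beside 0.050 for all genes. The sign changed there for BLM (0.0056), RAD51D (0.013), RAD52 (0.031), RAD54L (0.027), CHEK2 (0.011) and KAT5 (0.035). Without the FPKM filter the lower and wholly below counts were 0 and 0 with a median of 0.061, beside 0.013 for all genes. The sign changed there for BLM (0.0049), RAD51D (0.0090), RAD52 (0.023), RAD54L (0.025), CHEK2 (0.010) and KAT5 (0.032). With DESeq2, 2 members were higher and 3 lower at an unadjusted p under 0.05, RNF8 among the lower. FANCD2 turned to −0.0029 there, beside −0.0032 with DESeq2 size factors in edgeR. With the length offset, 3 members were lower at an unadjusted p under 0.05 by edgeR and 4 lay wholly below. The median there was −0.026, beside −0.0058 for all genes, and the sign changed for FANCA (−0.041), FANCC (−0.048), FANCD2 (−0.050) and TP53BP1 (−0.074).

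Same-numbered replicates of the groups showed no shared signal, with correlations of their deviations of 0.00122, −0.0388 and 0.0640. Those of differently numbered replicates ran from −0.102 to 0.101. Whether the cultures were handled in pairs cannot be told from these values. With the replicate block, 1 member was lower at an unadjusted p under 0.05, and PRMT5 kept its log2 fold change of −1.62 without passing edgeR's adjusted threshold. With the replicate block and the length offset, 0 members were higher and the median was −0.028, beside −0.0093 for all genes. PRMT5 had −1.62 there and did not pass, and the sign changed for FANCA (−0.041), FANCC (−0.051), FANCD2 (−0.051) and TP53BP1 (−0.079).

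Leaving out each library in turn gave 0 to 2 members higher and 0 to 3 lower at an unadjusted p under 0.05, 2 to 5 wholly above, 4 to 6 wholly below and a median of −0.016 to 0.031. The median of all genes ran from 0.0046 to 0.011. In these fits 1963 to 2854 of 20856 to 21288 genes tested had an unadjusted p under 0.05 by edgeR. Groups with fewer libraries separate more easily, so the wholly above and wholly below counts are not a result about the repair genes. The sign changed in at least 1 of these fits for BRCA1 (−0.21 to 0.11), CHEK1 (−0.056 to 0.16), CHEK2 (−0.085 to 0.036), DNA2 (−0.0012 to 0.15), FANCA (−0.014 to 0.053), FANCC (−0.016 to 0.096), FANCD2 (−0.040 to 0.033), KAT5 (−0.068 to 0.028), RAD50 (−0.033 to 0.27), RAD51B (−0.029 to 0.20), RAD51D (−0.13 to 0.022), RAD52 (−0.11 to 0.033), RAD54B (−0.072 to 0.25), RAD54L (−0.080 to 0.037), RBBP8 (−0.049 to 0.093), RNF168 (−0.039 to 0.11), TP53BP1 (−0.088 to 0.065) and XRCC3 (−0.058 to 0.14). Without PRMT5kd replicate 1, no member had an unadjusted p under 0.05, ATM included. Over all genes, the 10 higher and 4 lower by edgeR became 303 and 227 with DESeq2, 1 and 4 with limma without the FPKM filter, and 0 and 0 with the replicate block by edgeR, alone or with the length offset (2382 and 2462 genes at an unadjusted p under 0.05). They became 4 to 16 higher and 3 to 10 lower when each library was left out.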
